A study of Mus musculus with 4 samples.

Results

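Fatty acid oxidation and ketone body genes were examined in the colon of wild-type mice and of mice lacking Esr2, which encodes estrogen receptor β. The set was 37 gene symbols, chosen by name as enzymes of mitochondrial and peroxisomal fatty acid oxidation, of ketone body metabolism and of the switch between glucose and fat, out of 46095 symbols in the deposited count table, and all 37 had a row. Total RNA came from C57BL/6 colon at postnatal day 21, with 2 libraries labelled WT and 2 labelled Esr2-KO (genotype Esr2-/-); the design text mentions triplicates. The labels give neither the deleted part of Esr2, the position within the colon, nor whether libraries of a genotype came from separate animals, so that p-values measure the spread between these libraries, which may be technical. The series title places the comparison in a study of estrogen receptor β and colitis, and the question put to these genes is whether colon without the receptor held different amounts of their transcripts.

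Long-chain fatty acids enter mitochondria as carnitine esters, are shortened there by rounds of dehydrogenation, hydration, dehydrogenation and thiolysis, and pass their electrons to the respiratory chain through the electron transfer flavoprotein. Peroxisomes run a parallel chain of reactions on very long, branched and bile acid side chains, beginning with an oxidase in place of a dehydrogenase. Colonocytes are known for burning short-chain fatty acids, butyrate above all, and the suckling gut for making ketone bodies from milk fat, while pyruvate dehydrogenase kinases hold back glucose oxidation when fat is burned.

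The 4 libraries held 30826790 to 33709643 counts. Levels are given as CPM, counts scaled by library total and TMM factor, on which a floor of 3 counts lies at 0.0826 to 0.114 CPM. The targeted gene Esr2 had 21 and 13 counts (WT) and 6 and 16 counts (Esr2-KO), with overlapping genotypes, and since the labels do not say which part was deleted this neither bears out nor contradicts them. Esr2-KO 2 stood apart, with 21.6% of its counts in a list of exocrine pancreas genes, while WT 1 had 0.258%, WT 2 had 0.292% and Esr2-KO 1 had 0.408%. In WT 1, WT 2 and Esr2-KO 1 much of this was Klk1, at 1930, 2267 and 2043 CPM of 2397, 2792 and 3936 CPM. Cela2a, the most abundant gene of the list, stood at 11.1 and 2.76 CPM in WT. It was higher in both Esr2-KO libraries, at 83.2 CPM in Esr2-KO 1 and 43695 CPM in Esr2-KO 2. All 13 colon epithelium markers were detected in every library. They summed to 13970 and 16010 CPM (WT) against 12330 and 11750 CPM (Esr2-KO). Of these 13, the posterior homeobox gene Hoxb13 rose and the homeobox gene Cdx2 and the carbonic anhydrase Car1 fell. Hoxb13 stood at 72.8 and 153 CPM (WT) against 616 and 676 CPM (Esr2-KO), and Cdx2 at 199 and 165 CPM against 60.9 and 27.9 CPM. Short of the threshold given below, Car4, Slc26a3, Krt8 and Vil1 were higher and Muc2 and Krt20 lower in both Esr2-KO libraries. The part of position along the colon in these results was not tested. Car1 stood at 3002 and 6491 CPM (WT) against 1112 and 1082 CPM (Esr2-KO), a large part of the summed level. The keratin Krt8, with the highest mean level, stood at 3701 and 3322 CPM (WT) against 3971 and 4037 CPM (Esr2-KO).

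Of the 35 tested members 30 lay within 0.5 of no change on the log2 scale, and 2 differed past the threshold, an adjusted p under 0.05 over all genes in edgeR's quasi-likelihood test. Pdk4, a kinase that shuts down pyruvate dehydrogenase, fell 6.33-fold in Esr2-KO, and Acaa1b, a peroxisomal thiolase, fell 16.7-fold. For Acaa1b the size rests on single libraries, with a log2 fold change of -4.06 that became -2.83 without WT 2 and -4.72 without WT 1, and the call held in 9 of 13 alternative analyses. No member rose in the main edgeR fit, where 1.30% of all tested genes passed as higher. In that fit 1 member, Ppargc1a, had an unadjusted p under 0.05 as higher. Ppargc1a passed as higher with DESeq2, where it was the only member to do so, and by edgeR with no low-count filter. The lowest fitted change among the other 33 tested members was that of the bile acid oxidase Acox2 and the highest that of the coactivator Ppargc1a, and neither passed. Of the 37 members 35 were abundant enough to be tested, and 2 of the 35 passed (5.71%), against 2.69% of all 17169 tested genes, and 1.39% of all genes passed as lower. An unadjusted p under 0.05 was reached by 9 members (25.7%), against 20.6% of all genes, a share near the background. The median log2 fold change over the 35 members was -0.01 and over all tested genes 0.00 (fitted -0.0031).

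**Figure D1:**
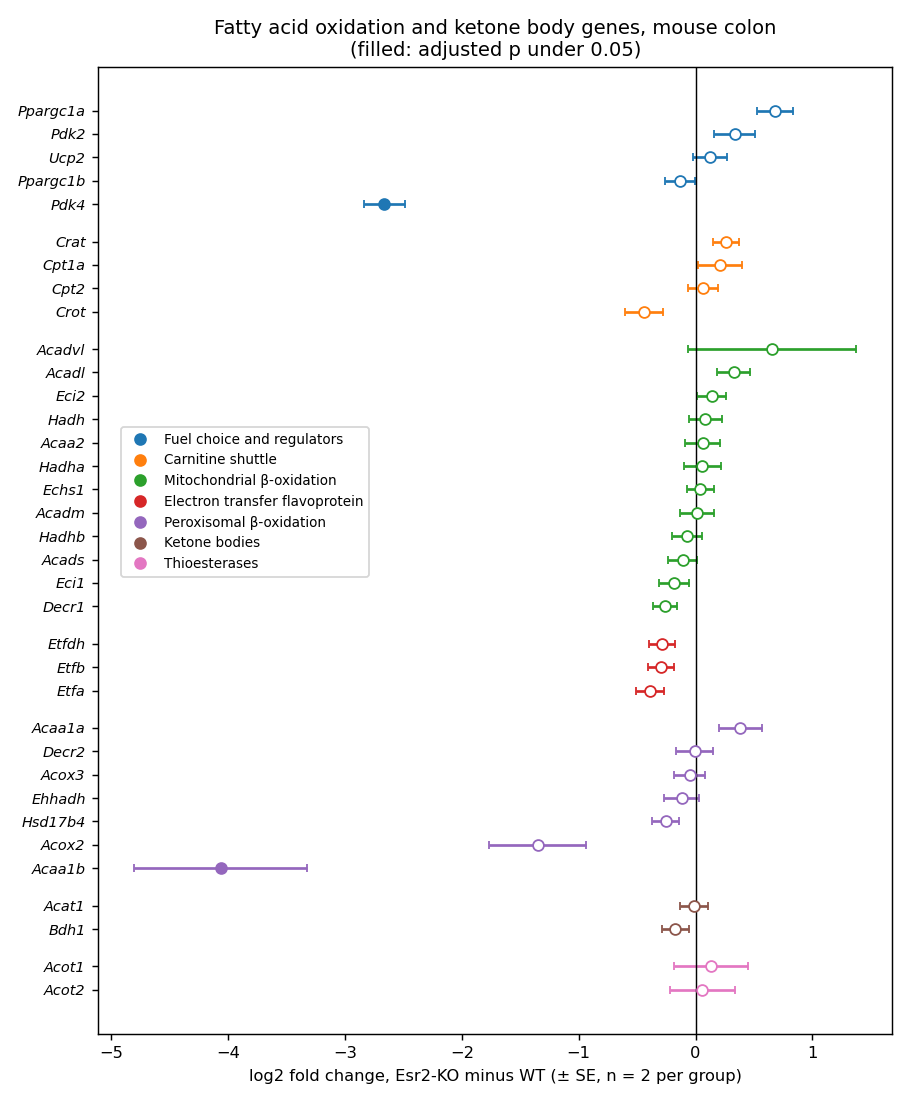
Log2 fold change (Esr2-KO minus WT) of the 35 tested members, with bars of 1 standard error, n = 2 libraries per group, ordered by role; filled points passed an adjusted p under 0.05. Pdk4 at -2.66 and Acaa1b at -4.06 are the filled points, and 30 of the 35 members lie within 0.5 of 0.

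Among the genes of fuel choice, Pdk4 counts were 1074 and 1182 for WT but 163 and 139 for Esr2-KO, or 29.6 and 34.0 CPM against 4.77 and 5.27 CPM. Both Esr2-KO libraries lay far below both WT libraries, and the libraries of each genotype lay close together. In log2 units the change was -2.66 ± 0.17 (SE, n = 2 libraries a genotype; edgeR adjusted p = 0.00699, Benjamini-Hochberg), and the call held in all 13 alternative analyses, with log2 fold changes from -2.83 to -2.54. With Esr2-KO 2 left out, the log2 fold change of Pdk4 was -2.73 (edgeR adjusted p = 0.000753). Pdk4 lies on chromosome 6 from 5483351 to 5496309 on the minus strand (GRCm38, GENCODE M21).

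Pdk2, the relative of Pdk4 among the members and a kinase of the same enzyme complex, gave values in the other direction. It stood at 37.2 and 52.9 CPM (WT) against 57.6 and 56.2 CPM (Esr2-KO), a fitted log2 difference of 0.34 ± 0.18 (edgeR adjusted p = 0.335) with a 95% interval from -0.08 to 0.76. Within a library, Pdk4 counts were 0.794 and 0.643 of the Pdk2 counts in WT and 0.0828 and 0.0939 of them in Esr2-KO. The coding sequences of the kinases are 65.9% identical and share no stretch of 50 bases, so that reads of that length tell them apart.

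The start sites of these kinases are shown because Pdk4 fell while Pdk2, its relative among the members, did not pass. The sequences are RefSeq windows of 300 bases (GRCm38.p6), 250 before to 50 after the start site, on the minus strand at chr6:5496229-5496528 for Pdk4 and chr11:95041322-95041621 for the first of the Pdk2 start sites. Capitals mark matches, on either strand, to any of 8 motifs. The general promoter motifs were the CCAAT box, the E-box with the letters CACGTG, the GC box with the letters GGGCGG and the TATA box with the letters TATAAA. The motif of forkhead factors was GTAAACA. For nuclear receptors the half-site AGGTCA was searched, with a direct repeat of it spaced by 1 base (a PPAR element) and the core of the estrogen response element, which is the half-site without its first letter and the reverse complement of that, spaced by 3 bases.
Pdk4: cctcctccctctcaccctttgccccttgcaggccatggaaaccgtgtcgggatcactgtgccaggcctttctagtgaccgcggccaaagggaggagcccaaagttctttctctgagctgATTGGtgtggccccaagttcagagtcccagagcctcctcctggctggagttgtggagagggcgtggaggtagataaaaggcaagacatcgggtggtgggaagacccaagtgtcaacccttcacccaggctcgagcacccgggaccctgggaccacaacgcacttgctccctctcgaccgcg
Pdk2: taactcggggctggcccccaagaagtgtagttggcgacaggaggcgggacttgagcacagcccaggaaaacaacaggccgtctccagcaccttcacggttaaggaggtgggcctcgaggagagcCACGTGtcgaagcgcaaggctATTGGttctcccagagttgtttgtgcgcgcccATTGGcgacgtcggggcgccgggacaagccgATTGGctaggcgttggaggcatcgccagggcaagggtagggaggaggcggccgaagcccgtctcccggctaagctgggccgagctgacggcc
The Pdk4 window held 1 CCAAT match and none of the other motifs, and the Pdk2 window 1 E-box and 3 CCAAT matches. CCAAT occurred in 37.6% of the 32619 promoter windows of the genome and the E-box in 7.20%.

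The transcriptional coactivators of the pathway went in different directions of fitted change. Ppargc1a (PGC-1α), which raises mitochondrial gene transcription, stood at 22.9 and 26.5 CPM (WT) against 36.1 and 43.0 CPM (Esr2-KO), and the genotypes did not overlap. Its log2 fold change of 0.68 ± 0.15 did not pass (edgeR adjusted p = 0.0718), though it did with DESeq2 (0.00568), with no low-count filter (0.00624) and without Esr2-KO 1 (0.0138), within a range of 0.00568 to 0.347 over the 13 alternatives. Its relative Ppargc1b stood at 55.1 and 46.6 CPM (WT) against 46.2 and 46.7 CPM (Esr2-KO; -0.13 ± 0.13, edgeR adjusted p = 0.604). The ratio of Ppargc1a to Ppargc1b counts was 0.415 and 0.569 in WT and 0.782 and 0.922 in Esr2-KO.

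Ucp2, an uncoupling protein of the inner mitochondrial membrane, was the most abundant gene of fuel choice per length of exon, at 107 and 105 CPM per kilobase in WT and 117 and 113 in Esr2-KO. Its log2 fold change was 0.12 ± 0.15 (edgeR adjusted p = 0.683, 95% interval -0.23 to 0.47). Angptl4, a secreted inhibitor of lipoprotein lipase and a target of PPAR receptors in many tissues, had 0 counts in WT 1, WT 2 and Esr2-KO 2 and 6 counts in Esr2-KO 1, and could not be tested; whether annotation or counting set these values was not tested.

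The carnitine shuttle showed no member past the threshold. Cpt1a, the liver-type carnitine palmitoyltransferase that sets the rate of entry, stood at 189 and 253 CPM (WT) against 226 and 285 CPM (Esr2-KO), with overlapping genotypes (0.21 ± 0.19, edgeR adjusted p = 0.575, 95% interval -0.24 to 0.67). Its muscle-type relative Cpt1b had 1 to 3 counts per library, at or under the floor of 3 counts. In the annotation 81.4% of the Cpt1b exon bases also belong to a gene on the same strand, Gm44502, which had 0 counts in every library. A counter that drops reads shared by genes would lower both, and how such reads were counted is not known here, so that the low Cpt1b count does not show that the transcript was absent.

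Cpt2, which releases the acyl group inside the mitochondrion, stood at 68.8 and 80.7 CPM (WT) against 73.8 and 82.7 CPM (Esr2-KO). Crat, which moves acetyl groups in mitochondria and peroxisomes, was higher in both Esr2-KO libraries (57.8 and 57.9 CPM) than in WT (49.5 and 47.2 CPM), without passing (0.26 ± 0.11, edgeR adjusted p = 0.246). Crot, its peroxisomal relative for medium chains, was lower in both, with 51.1 and 61.8 CPM (WT) against 46.3 and 36.8 CPM (Esr2-KO). The log2 fold change of Crot was -0.44 ± 0.16 (edgeR adjusted p = 0.192), and leaving out a library moved it between -0.61 and -0.28.

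Mitochondrial and peroxisomal steps were then taken separately. Of 20 mitochondrial members 19 were tested, 0 rose and 0 fell, and 9 of the 19 had negative log2 fold changes with a median of 0.01. At an unadjusted p under 0.05, 4 mitochondrial members were lower and 0 higher (21.1% of them, against 20.6% of all tested genes, of which 10.9% were lower and 9.69% higher), and DESeq2 called 1, Etfa. Of 8 peroxisomal members, all tested, Acaa1b fell and none rose, 7 were negative and the median was -0.19. Over all tested genes 50.3% were negative. The peroxisomal median was -0.05, with 4 of 8 negative, without WT 2, and the mitochondrial median was -0.12, with 13 of 19 negative, without Esr2-KO 2. The difference between the organelles was not tested. Crat and Eci2, known from both organelles, and cytosolic Acot1 were counted apart.

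The medians over members also differed between libraries of a genotype, except the peroxisomal medians of Esr2-KO, which lay close together. WT 1 lay below the WT mean in 16 of 19 mitochondrial and 7 of 8 peroxisomal members, on log2(CPM + 0.5). Over all tested genes it did so in 8682 of 17169. Relative to the mean of WT, the mitochondrial median was -0.12 for Esr2-KO 1 and 0.02 for Esr2-KO 2, beside -0.06 and 0.06 for the WT libraries. The peroxisomal median was -0.18 and -0.16 in Esr2-KO and -0.15 and 0.15 in WT. The WT medians mirror each other because the WT libraries are taken against their own mean.

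**Figure D2:**
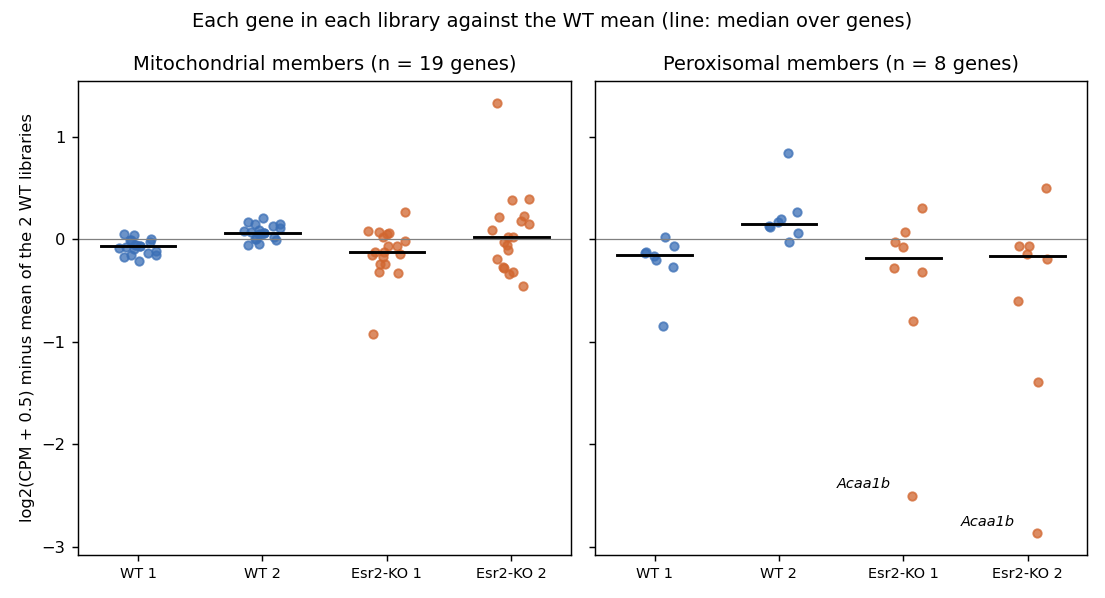
Log2(CPM + 0.5) of each mitochondrial (19) and peroxisomal (8) member in each library, minus the mean of the 2 WT libraries; points are genes and lines medians over genes. The peroxisomal medians of both Esr2-KO libraries (-0.18 and -0.16) lie near that of WT 1 (-0.15) and below that of WT 2 (0.15), and Acaa1b is the lowest point in both Esr2-KO libraries.

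Inside the mitochondrion, acyl-CoA dehydrogenases open each round, divided by chain length. Per length of exon the short-chain enzyme Acads was the most abundant, at 99.2 to 112 CPM per kilobase over the 4 libraries, followed by the medium-chain enzyme Acadm at 68.5 to 84.9 and the long-chain enzyme Acadl, which reached 73.2, and the ranges of Acadm and Acadl overlapped. Acads stood at 194 and 210 CPM (WT) against 185 and 188 CPM (Esr2-KO), and the log2 fold change was -0.11 ± 0.12 (edgeR adjusted p = 0.649). Acadm had a log2 fold change of 0.01 ± 0.14, with a 95% interval from -0.33 to 0.36.

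Acadl was higher in both Esr2-KO libraries, at 95.8 and 118 CPM (WT) against 128 and 140.2 CPM (Esr2-KO), without passing (0.33 ± 0.14, edgeR adjusted p = 0.254). Acadvl, the very-long-chain enzyme, was the member whose Esr2-KO libraries differed most among the mitochondrial enzymes, with 111 and 139 counts for WT, then 55 and 253 for Esr2-KO. The Esr2-KO libraries lay on either side of WT, and the higher one was Esr2-KO 2, the library richest in pancreatic transcripts, whose part in this was not tested. Acadvl had 0.742 to 4.43 CPM per kilobase, under the range of every other acyl-CoA dehydrogenase here, and 42.9% of its exon bases overlap Dvl2 on the opposite strand, whose reads an unstranded count cannot separate. Dvl2 itself had 4 and 16 counts for WT and 24 and 20 for Esr2-KO, and the part of annotation or counting in the low values of both genes was not tested.

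The middle steps had fitted changes near 0. Hadh, the short-chain hydroxyacyl dehydrogenase, was the most abundant member of all per length, at 178 and 200 CPM per kilobase in WT and 200 and 201 in Esr2-KO, and its log2 fold change was 0.09 ± 0.15 (95% interval -0.26 to 0.43). Echs1, the short-chain enoyl-CoA hydratase, was at 132 and 144 CPM (WT) against 144 and 139.9 CPM (Esr2-KO; 0.04 ± 0.12). Hadha and Hadhb, the α and β subunits of the trifunctional protein for long chains, ranged over the 4 libraries from 229.7 to 298 CPM and from 76.3 to 91.4 CPM, with log2 fold changes of 0.06 ± 0.16 and -0.07 ± 0.13. The thiolase Acaa2, which ends each round, ranged from 101 to 126 CPM, with a log2 fold change of 0.06 ± 0.15. In these 5 genes the genotypes overlapped, and their adjusted p values ran from 0.780 to 0.878 by edgeR.

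None of the 3 auxiliary enzymes for unsaturated chains passed. Decr1, the dienoyl-CoA reductase, stood at 102 and 103 CPM (WT) against 86.8 and 84.5 CPM (Esr2-KO), a small difference with tight replicates. Its log2 fold change of -0.26 ± 0.11 had an unadjusted p of 0.0429 and an edgeR adjusted p of 0.225. The isomerase Eci1 stood at 61.5 and 66.8 CPM (WT) against 61.4 and 51.4 CPM (Esr2-KO; -0.18 ± 0.13). Its relative Eci2 stood at 47.5 and 56.0 CPM (WT) against 57.2 and 56.8 CPM (Esr2-KO; 0.14 ± 0.13), above both WT libraries.

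The electron transfer flavoprotein and its oxidoreductase, which carry electrons from the acyl-CoA dehydrogenases to ubiquinone, were lower together without passing. Etfa, the α subunit, stood at 156 and 162 CPM (WT) against 127 and 115 CPM (Esr2-KO). Etfb, the β subunit, stood at 158 and 158 CPM (WT) against 127 and 131 CPM (Esr2-KO). Etfdh, the membrane oxidoreductase, stood at 102 and 110.0 CPM (WT) against 89.8 and 83.8 CPM (Esr2-KO). In all 3 genes both Esr2-KO libraries lay below both WT libraries, as was so for 27.7% of all tested genes. Their log2 fold changes were -0.39 ± 0.12, -0.30 ± 0.11 and -0.29 ± 0.11, with edgeR adjusted p values of 0.134, 0.206 and 0.211. All 3 were negative in every one of the 13 alternative fits. These reuse the same libraries, whose genotypes did not overlap, so that the sign could hardly change and adds no separate support. Etfa passed with DESeq2 alone of the 13 (adjusted p = 0.0432). In the annotation 53.0% of the Etfb exon bases also belong to Gm45233 on the same strand, which is not a symbol of the table.

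**Figure D3:**
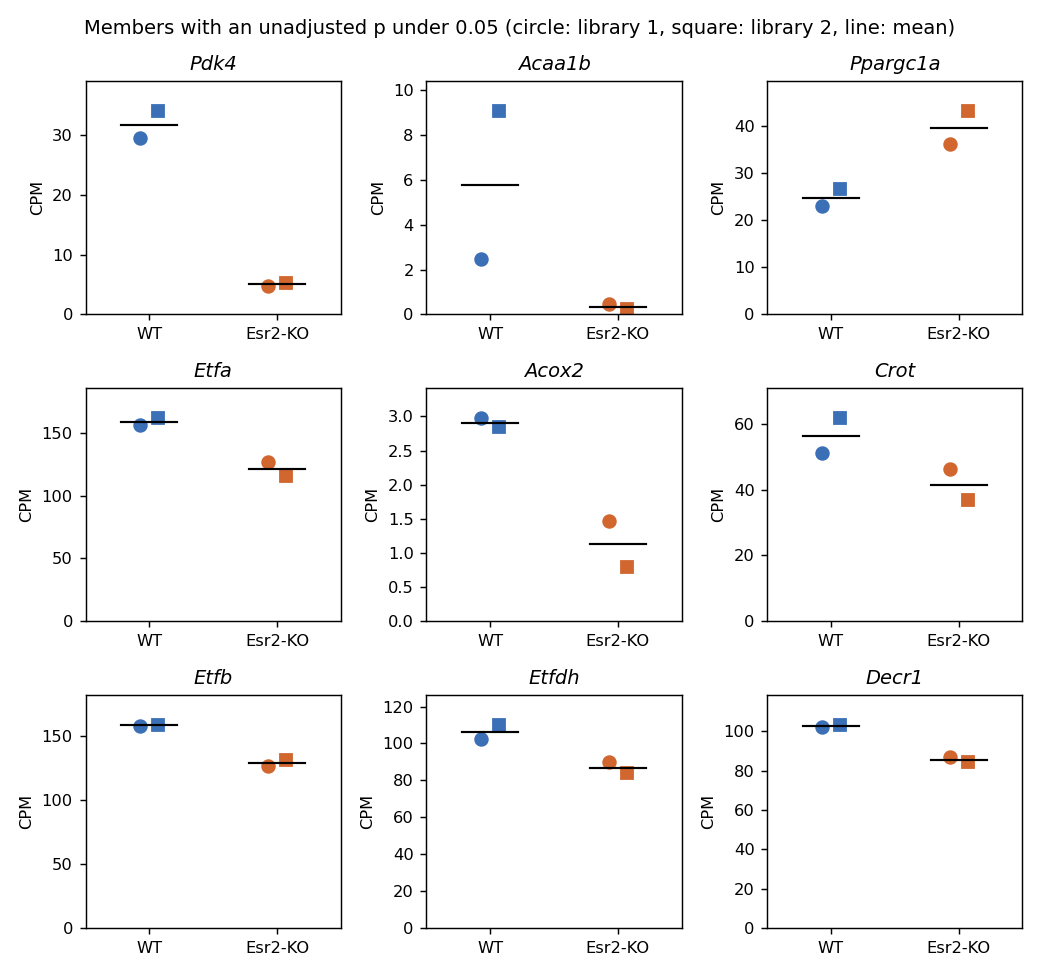
CPM in each library for the 9 members with an unadjusted p under 0.05; circles are library 1 and squares library 2 of each genotype, lines are means of 2 and every vertical axis starts at 0. Pdk4 falls from 29.6 and 34.0 to 4.77 and 5.27 CPM, the WT libraries of Acaa1b differ from each other (2.45 and 9.05 CPM), and the flavoprotein genes show small differences.

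In the peroxisome, the thiolase that ends each round is encoded in the mouse by the nearby genes Acaa1a and Acaa1b, and their values differed in direction. Acaa1b (chromosome 9, 119148023 to 119157093, minus strand, GRCm38) had 89 and 315 counts for WT but 15 and 6 for Esr2-KO, or 2.45 and 9.05 CPM against 0.439 and 0.228 CPM. Every Esr2-KO value lay below every WT value, but the WT libraries differed from each other far more than those of Pdk4. The fitted log2 difference was -4.06 ± 0.74 (edgeR adjusted p = 0.0458). The call held in 9 of 13 alternatives; among those that ended it were limma-voom (adjusted p = 0.155) and the fits when WT 2 was left out (0.118, at -2.83 on the log2 scale) and when Esr2-KO 2 was (0.0549). The direction was negative in all 13, which genotypes that do not overlap leave little room to change. Adjusted p over the 13 ran from 3.34e-07 to 0.155.

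Acaa1a (chromosome 9, 119339676 to 119350299, plus strand) was the major copy, at 51.4 and 74.6 CPM (WT) against 76.6 and 88.0 CPM (Esr2-KO). It was higher in both Esr2-KO libraries without passing (0.38 ± 0.19, edgeR adjusted p = 0.303, 95% interval -0.06 to 0.83). Of the counts of both copies together, Acaa1b held 4.55% (95% exact interval 3.67 to 5.57) and 10.8% (9.71 to 12.0) in WT, and 0.569% (0.319 to 0.937) and 0.258% (0.0948 to 0.561) in Esr2-KO, where the intervals cover counting error only.

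These copies are nearly identical, so that their counts are uncertain. Their coding sequences of 1275 bases differ at 44 positions (96.5% identity), and 38.1% of all 50-base stretches of each are found in the other. The most divergent 60 bases of the coding sequence, positions 259 to 318 counted from the A of the start codon (GENCODE M21 transcripts, GRCm38), are shown because reads across them can tell the copies apart. Capitals mark the 11 differing bases.
Acaa1a: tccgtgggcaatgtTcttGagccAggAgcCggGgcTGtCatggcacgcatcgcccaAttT
Acaa1b: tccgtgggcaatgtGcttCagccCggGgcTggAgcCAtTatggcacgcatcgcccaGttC

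Their start regions are unlike each other. The RefSeq windows (GRCm38.p6, 250 bases before to 50 after the start site) lie at chr9:119341044-119341343 on the plus strand for Acaa1a and chr9:119157044-119157343 on the minus strand for Acaa1b, with capitals as above.
Acaa1a: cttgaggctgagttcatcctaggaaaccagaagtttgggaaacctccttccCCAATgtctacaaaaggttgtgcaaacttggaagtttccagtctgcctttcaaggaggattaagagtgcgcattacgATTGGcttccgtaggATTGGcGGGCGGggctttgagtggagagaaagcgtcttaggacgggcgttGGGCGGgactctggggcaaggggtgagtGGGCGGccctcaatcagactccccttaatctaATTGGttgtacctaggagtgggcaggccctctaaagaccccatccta
Acaa1b: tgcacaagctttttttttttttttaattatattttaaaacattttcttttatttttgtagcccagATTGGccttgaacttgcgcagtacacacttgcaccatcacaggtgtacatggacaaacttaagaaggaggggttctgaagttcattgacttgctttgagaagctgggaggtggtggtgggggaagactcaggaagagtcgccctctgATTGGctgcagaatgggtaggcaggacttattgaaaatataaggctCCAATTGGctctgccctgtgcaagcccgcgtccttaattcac
The Acaa1a window is 53.3% G and C and held 3 GC boxes and 4 CCAAT matches. The Acaa1b window is 43.7% G and C and held 4 CCAAT matches, of which the last 2 overlap, and no GC box. GC boxes occurred in 35.9% of all windows. Over the 29 members with a window in the table, 20 held a GC box, 15 a CCAAT match and 4 the half-site AGGTCA (Acadm, Acadvl, Cpt1a and Echs1), against 16.2% of all windows for the half-site. No member window held the direct repeat or the estrogen response element in these exact letters, which 0.0399% and 0.0705% of all windows did.

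The oxidases that begin the peroxisomal rounds did not pass. Acox2, which acts on bile acid intermediates and branched chains, had 108 and 99 counts for WT but 50 and 21 for Esr2-KO. Both Esr2-KO libraries were lower, with a log2 fold change of -1.35 ± 0.42 that did not pass (edgeR adjusted p = 0.140). It was -1.86 when Esr2-KO 1 was left out, which leaves only the library richest in pancreatic transcripts. Acox3, the pristanoyl-CoA oxidase, stood at 39.3 and 46.8 CPM (WT) against 42.2 and 40.9 CPM (Esr2-KO; -0.05 ± 0.13).

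Of the peroxisomal enzymes with both hydratase and dehydrogenase activity, Hsd17b4 was lower in both Esr2-KO libraries, at 77.8 and 85.1 CPM (WT) against 65.2 and 71.4 CPM (Esr2-KO; -0.25 ± 0.11, edgeR adjusted p = 0.273). Ehhadh overlapped between genotypes, at 37.6 to 47.4 CPM (-0.12 ± 0.15), as did the peroxisomal dienoyl-CoA reductase Decr2, at 47.2 to 62.7 CPM (-0.01 ± 0.16). Over the 8 peroxisomal members 5 had genotypes that did not overlap, 4 of them lower in Esr2-KO and 1, Acaa1a, higher. Over all tested genes 54.7% did not overlap, 27.7% lower and 27.0% higher.

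**Figure D4:**
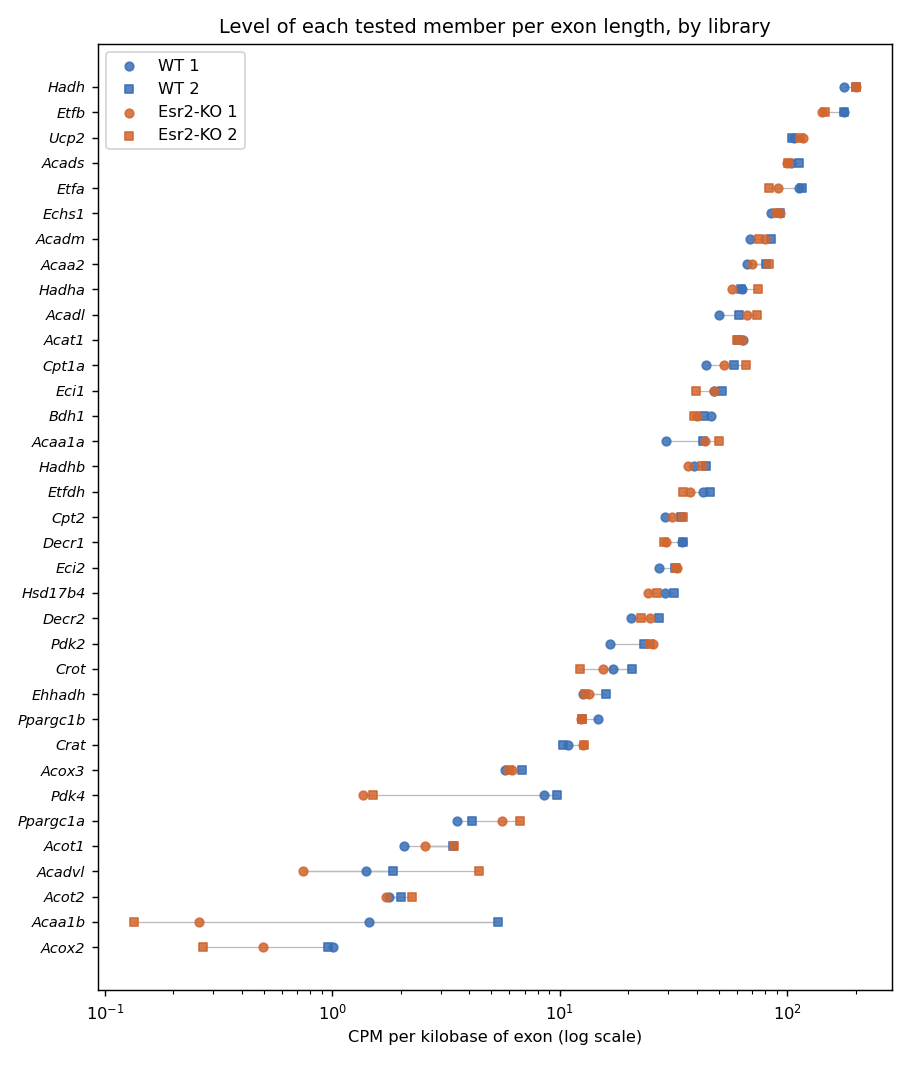
Level of the 35 tested members per kilobase of exon (CPM per kilobase, log scale), by library, ordered by the mean over 4 libraries. Hadh is highest and Acox2 lowest, and Pdk4, Acaa1b, Acox2 and Acadvl are the genes whose libraries spread most widely.

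Of the ketone body enzymes among the members, Acat1, the mitochondrial thiolase that joins or splits acetoacetyl-CoA, stood at 218 and 206 CPM (WT) against 216 and 204 CPM (Esr2-KO), which amounts to a log2 fold change of -0.01 ± 0.12 (95% interval -0.30 to 0.28). Bdh1, which interconverts acetoacetate and β-hydroxybutyrate, stood at 168 and 156 CPM (WT) against 146 and 142 CPM (Esr2-KO), lower in both Esr2-KO libraries by less than the test could call (-0.17 ± 0.12, edgeR adjusted p = 0.448). The acyl-CoA thioesterases Acot1 and Acot2, cytosolic and mitochondrial copies that are 85.5% identical in coding sequence, had 170 and 268 against 198 and 206 counts and 142 and 153 against 129 and 129 counts, WT against Esr2-KO. Their log2 fold changes were 0.13 ± 0.32 and 0.06 ± 0.28, and shared 50-base stretches (43.5% of Acot1) leave each copy's count uncertain.

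Other genes of the pathway were read from a list of 74, of which 69 were tested, 1 rose and 2 fell, with a median of -0.04. The share past the threshold was 4.35%, against 2.69% of all tested genes. An unadjusted p under 0.05 was reached by 31.9% of the 69, against 20.6% of all tested genes. Pdp2, a phosphatase that reverses the action of the pyruvate dehydrogenase kinases, rose from 26.5 and 24.2 CPM to 51.6 and 57.9 CPM (1.11 ± 0.13, edgeR adjusted p = 0.0200), and its call ended without WT 1 (0.0563) or WT 2 (0.0518), within a range of 5.59e-09 to 0.0563. Prkaa1, which encodes the α1 catalytic chain of the energy sensor AMPK, fell from 72.9 and 89.0 CPM to 51.1 and 46.6 CPM (-0.73 ± 0.14, edgeR adjusted p = 0.0481), a call that held in 9 of 13 alternatives and ended, among others, without WT 1 (0.0694), WT 2 (0.153) or Esr2-KO 2 (0.106), within a range of 5.01e-04 to 0.153.

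The genes of that list named next did not pass. Ppara, the receptor PPARα that drives transcription of fatty acid oxidation genes, was chosen after its values were seen, and stood at 27.6 and 41.0 CPM (WT) against 16.8 and 13.9 CPM (Esr2-KO; -1.16 ± 0.22, edgeR adjusted p = 0.0501). Its relative Ppard went the other way, at 0.881 and 1.44 CPM (WT) against 2.19 and 12.2 CPM (Esr2-KO; 2.63 ± 0.78, edgeR adjusted p = 0.129). Of the 16 tested genes of fuel choice and regulation in that list, 8 had positive and 8 negative log2 fold changes. Among other mitochondrial genes 0 of 15 passed, and Hsd17b10 had the smallest p (0.29 ± 0.12, edgeR adjusted p = 0.225). Among other peroxisomal genes 0 of 20 passed, led by the peroxisomal fatty acid carrier Abcd3, at 170.2 and 165 CPM (WT) against 113 and 137 CPM (Esr2-KO; -0.43 ± 0.14, edgeR adjusted p = 0.149). Of 11 tested acyl-CoA synthetases, thioesterases and acetyl-CoA carboxylases 0 passed, led by Acacb, which makes the malonyl-CoA that inhibits Cpt1a (-0.67 ± 0.20, edgeR adjusted p = 0.125).

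Markers of other cells and gut segments moved beside these results. In bulk tissue, fewer cells of a type and less RNA per cell cannot be told apart. A list of 10 small intestine markers summed to 786 and 962 CPM (WT) against 214 and 68.7 CPM (Esr2-KO), led by Fabp2, with 0 of 7 tested past the threshold. Most of this sum was Fabp2, at 717 and 826 CPM (WT) against 166 and 19.9 CPM (Esr2-KO). Besides Fabp2, Apob, Sis and Alpi were lower in both Esr2-KO libraries than in either WT library. Mttp was higher in both, and the genotypes overlapped for Fabp6, Lyz1 and Gata4. Lct and Apoa4 had 0 to 7 counts in every library. Sis, the sucrase-isomaltase, had 10 and 438 counts (WT) against 2 and 0 (Esr2-KO), and Alpi, the intestinal alkaline phosphatase, 749 and 1141 counts against 136 and 7. Sis was higher in WT 2 than in WT 1, as were 28 of the 35 tested members, Acaa1b among them, and 8682 of all 17169 tested genes. The summed level was lower in the same libraries as Pdk4 and Acaa1b, and its part in those falls was not tested. A list of 11 adipocyte markers summed to 333 and 662 CPM (WT) against 605 and 271 CPM (Esr2-KO), with 0 of 10 tested past the threshold. The part of adipocyte transcripts in these results was not tested. Striated muscle markers summed to 28.7 to 40.4 CPM, with Tnnt2 past the threshold as higher, while Ckm was lower in both Esr2-KO libraries without passing. Smooth muscle markers summed to 5157 to 6669 CPM, with 0 of 9 past the threshold. Hepatocyte markers summed to 24.6 and 70.9 CPM (WT) against 141 and 106 CPM (Esr2-KO). They were led by Ttr, which rose from 8.26 and 16.4 CPM to 64.8 and 77.0 CPM. For Alb, Apoa2, Cyp2e1 and Cps1 the genotypes overlapped.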

How the data were processed

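The authors deposited raw counts, 1 whole number for each gene symbol and library. HISAT2 and the mm10 build are named in the submitters' processing notes. Per the labels' protocols, RNA was depleted of ribosomal RNA and made into directional libraries. The sources used here do not give the counting program, annotation, strand setting or read length. Genes were kept with filterByExpr (minimum count 10, total 15), scaled by TMM and tested two-sided by the quasi-likelihood F test of edgeR 4.0.16 under R 4.3.3 with 2 residual degrees of freedom and Benjamini-Hochberg adjustment over all 17169 genes. Standard errors came from the coefficient and the F statistic, and 95% intervals from the t distribution. The F test and the intervals used total degrees of freedom, the residual ones plus those gained by sharing variance across genes. The procedure was tested on simulated counts. Levels per kilobase used exons of protein-coding transcripts in GENCODE M21 (basic set), which may differ from the annotation counted. Between libraries of a genotype, chi-square per degree of freedom was 39.7 (WT) and 478 (Esr2-KO), so none is a repeat deposit.

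Members, lists and tests were chosen with earlier results of these data known, and the list counts are descriptions, with no set test. All members are accounted for; libraries, fold change, SE and adjusted p are given for those past the threshold or with an unadjusted p under 0.05, and for the most abundant of each role, and values or ranges for the rest. Sequences are shown for members past the threshold and their closest paralog among the members. Of other lists, genes past the threshold or with the smallest p are named; 1 gene that this rule takes is not reported here. Alternatives were other scaling, filters and thresholds, DESeq2 1.42.0, limma-voom (limma 3.58.1), a block for the replicate number, leaving out each library and exocrine pancreas genes removed.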

Additional observations from a re-analysis of the deposited data

How the results depend on the processing

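Over 13 alternative fits, each log2 fold change named here among members with an unadjusted p under 0.05 kept its direction, and Pdk4 passed in all 13. The genotypes of these members did not overlap and the fits reuse the same libraries, so that the kept direction is no separate support. The number of members called higher was 0, and 1 (Ppargc1a) with no low-count filter, with DESeq2 or at an adjusted p under 0.10; it ran from 0 to 2 over the fits without 1 library. The number called lower was 2, and 1 (Pdk4) with limma-voom; without 1 library it ran from 1 to 3. The highest counts, 2 higher and 3 lower, both came without Esr2-KO 1, where Acadvl, Acox2 and Ppargc1a were called besides; with DESeq2 Etfa was called lower as well. Other genes of the pathway past the threshold numbered 3, against 9 with no filter, 6 with DESeq2 and 2 to 10 without 1 library. Library totals with no factor moved the median of all genes to -0.17, the mitochondrial median to -0.14 (16 of 19 negative) and the peroxisomal median to -0.35, which leaves the mitochondrial members 0.02 above and the peroxisomal members 0.18 below all genes, as with TMM. Without 1 library the mitochondrial median ran from -0.116 to 0.0703 and the peroxisomal from -0.297 to -0.046. Over all genes, calls numbered 462, and 165 without WT 1 to 1804 without Esr2-KO 1. Where these values moved, the cause was not tested.

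The replicate numbers are not stated to pair libraries, and the difference between replicates 1 and 2 had a correlation of -0.084 between genotypes, across genes. With the replicate number as a block 1 member was called lower, Pdk4; Acaa1b had an adjusted p of 0.0617 and Prkaa1 0.0715, by edgeR. Cpt1b and Angptl4, with 0 to 6 counts per library, were too low to test, and whether depth, annotation or counting set this was not tested.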
